A study of Mus musculus with 26 samples.

Results

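Vorinostat (SAHA), an inhibitor of histone deacetylases, was compared with vehicle in the CA1 region of the hippocampus of transgenic mice, miRNA by miRNA. Libraries were chosen by their genotype and agent labels: 10 transgenic libraries on Vorinostat and 7 transgenic libraries on vehicle, 17 of the 26 libraries of the series. Both groups carry the CamkdeltaC transgene, and both drank the agent or the vehicle in water for 4 weeks from an age of 2 months, which ended at 3 months of age. The series title links heart failure to memory impairment, and the comparison asks what the inhibitor does to CA1 miRNAs in this model. Males and females were used, but the sex of a given library is not in the labels. Wild type littermates on vehicle gave the other 9 libraries, and no wild type library on Vorinostat was analysed here. The promoter of the transgene is not given in the labels. As background, the mouse line known by this name makes the delta C form of calcium/calmodulin-dependent kinase II in heart muscle and develops heart failure. Whether every library comes from its own animal is not in the labels, and p-values here describe library-to-library spread, part of which may be technical.

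As background, histone deacetylases take acetyl groups off histone tails and other proteins, and an inhibitor such as Vorinostat raises acetylation, which in general accompanies more open chromatin. A miRNA is cut from a hairpin precursor, whose 2 arms can both give a mature strand. It is loaded into an Argonaute protein and pairs with messenger RNAs mainly through its seed, bases 2 to 8 from the 5′ end, which lowers their stability and translation. miRNAs with the same seed share most predicted targets. In hippocampal neurons several miRNAs limit local protein synthesis at synapses, and some primary transcripts respond to neuronal activity.

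The mature sequences below belong to the miRNAs on which the results turn. They are written 5′ to 3′ as RNA, from RefSeq annotation of GRCm38.p6 (the assembly that mm10 denotes), with the seed in capitals. The first set is the miR-183 cluster, known for its high levels in sensory cells. Its members lie close together on the minus strand of chromosome 6, and the gene annotation (GENCODE) has no other gene across them. Their seeds differ by few bases.
miR-182-5p: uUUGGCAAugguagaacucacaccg
miR-96-5p: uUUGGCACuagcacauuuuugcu
miR-183-5p: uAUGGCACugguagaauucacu
The mature strands are at chr6:30165962-30165986 (miR-182-5p), chr6:30169506-30169528 (miR-96-5p) and chr6:30169711-30169732 (miR-183-5p).

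The second set is the miR-29 guide strands, which share 1 seed, are known to be abundant in astrocytes and mature neurons, and target many collagen messenger RNAs and DNA methyltransferases.
miR-29a-3p: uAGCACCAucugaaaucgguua
miR-29b-3p: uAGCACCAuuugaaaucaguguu
miR-29c-3p: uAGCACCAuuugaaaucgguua
miR-29a-3p lies at chr6:31062673-31062694 on the minus strand, outside other annotated genes. miR-29c-3p lies at chr1:195037600-195037621 on the plus strand, in an exon of the noncoding transcript A330023F24Rik. miR-29b-3p can come from both places.

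The third set holds the other miRNAs that differed once libraries were paired by number, as described below. Each has a seed of its own.
miR-129-5p: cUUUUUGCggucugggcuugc
miR-379-5p: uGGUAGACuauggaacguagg
miR-339-5p: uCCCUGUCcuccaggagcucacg
miR-129-5p comes from 2 hairpins, at chr2:94241419-94241439 (minus strand, in an intron of Mir670hg) and at chr6:29022624-29022644 (plus strand, in an exon of the noncoding gene Gm3294). miR-379-5p, the first miRNA of the imprinted Mirg cluster, is at chr12:109709065-109709085 on the plus strand and outside other annotated genes. miR-339-5p is at chr5:139369708-139369730 on the minus strand, in an intron of 3110082I17Rik.

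With M for 1000000 counts, the vehicle libraries held 6.01 to 24.8 M miRNA counts (mean 13.2 ± 7.56 M, SD, n = 7). The Vorinostat libraries held 3.89 to 15.7 M (mean 11.1 ± 3.49 M, SD, n = 10; exact permutation test of the totals, two-sided, p = 0.442). The smallest total was that of Vorinostat replicate 8. Markers of neurons (miR-124-3p, miR-128-3p, miR-9-5p, miR-138-5p, miR-137-3p) had reads in every library and together took 36.8% ± 0.992 (SD, n = 7) of counts with vehicle and 37.6% ± 1.59 (SD, n = 10) with Vorinostat. miR-128-3p alone took a mean of 21.9% with vehicle and 24.5% with Vorinostat, and the list's members differed in direction within pairs, as described below. The neuron markers show neural tissue and do not tell CA1 from other parts of the hippocampus. Of 13 values per library (depth, number of entries with reads, shares of the leading miRNAs and of 9 marker lists), none passed after adjustment, with a smallest adjusted p of 0.240 (exact permutation tests, two-sided, Benjamini-Hochberg). Astrocyte markers took 1.73% ± 0.387 (SD, n = 7) against 1.33% ± 0.324 (SD, n = 10), exact permutation p = 0.0369 before adjustment. A list named other brain regions (the miR-183 cluster and the Hox-linked miR-10 and miR-196) took 0.0124% ± 0.00310 (SD, n = 7) against 0.0234% ± 0.0129 (SD, n = 10), exact permutation p = 0.0219 before adjustment. miR-182-5p, miR-183-5p and miR-96-5p had reads in every library. Whether the reads of this list come from outside the hippocampus was not tested.

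The libraries were split along 1 axis that the treatment labels do not give. The first principal component of log2 CPM (counts per 1000000, scaled by trimmed-mean factors) held 52.2% of the variance. The 10 libraries with replicate numbers 1 to 6 (4 vehicle, 6 Vorinostat) had scores from -14.5 to -3.15, and the 7 with numbers 7 to 10 (3 vehicle, 4 Vorinostat) had scores from 4.19 to 31.8, so both sets hold both groups. Vorinostat replicate 8 had the score of 31.8. Base composition moved with this axis. The slope of log2 CPM on the share of G and C bases in the mature miRNA was negative in all libraries numbered 1 to 6 and positive in all numbered 7 to 10. What the numbers stand for is not in the labels, and its part in the results below was not tested.

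**Figure D1:**
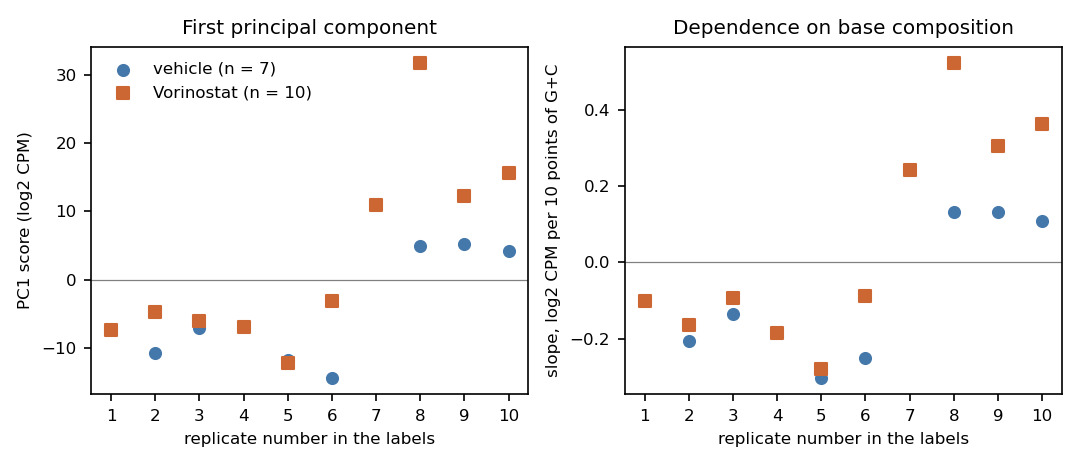
Each point is 1 library, placed by its replicate number, with vehicle as blue circles and Vorinostat as orange squares. The left panel shows the score on the first principal component and the right panel the slope of log2 CPM per 10 percentage points of G+C, from -0.304 to 0.523. Both measures are below 0 for all libraries numbered 1 to 6 and above 0 for all numbered 7 to 10, in both groups.

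Without regard to the numbers, no miRNA passed the test between Vorinostat and vehicle. Of 579 miRNAs with enough counts, 0 had an adjusted p under 0.05 in edgeR's quasi-likelihood test (Benjamini-Hochberg), with a smallest adjusted p of 0.467. At an unadjusted p under 0.05 there were 21 miRNAs, 3.63% of those tested, of which 11 were higher and 10 lower with Vorinostat. limma voom called 0, with 19 (3.28%) at an unadjusted p under 0.05. DESeq2 called 1, miR-182-5p (0.173% of those tested), at an adjusted p of 0.0353. In no miRNA were the groups apart: 0 of 579 had every Vorinostat library on 1 side of every vehicle library.

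The miR-183 cluster led the higher side. miR-182-5p had 31.6, 49.7 and 57.3 CPM (lowest, median, highest) in the vehicle libraries and 48.9, 80.5 and 274 CPM in the Vorinostat libraries. In 9 of 10 Vorinostat libraries it was above every vehicle library. Its log2 difference was 1.27 (SE 0.32, 95% interval 0.60 to 1.94), with an unadjusted p of 0.000845 and an adjusted p of 0.467 in edgeR. miR-183-5p had 26.7, 34.3 and 74.2 CPM with vehicle and 41.7, 49.5 and 211 CPM with Vorinostat. The groups overlapped through 1 vehicle library, replicate 6 at 74.2 CPM, and the log2 difference was 1.09 (SE 0.36, edgeR adjusted p = 0.751). miR-96-5p was scarce, with a median of 2.91 CPM with vehicle and 3.69 CPM with Vorinostat, and had 20.3 CPM in Vorinostat replicate 2. Its log2 difference was 0.80 (SE 0.44, edgeR adjusted p = 0.751). In 9 wild type libraries, scaled together with all 26 libraries, miR-182-5p had a median of 72.9 CPM (26.9 to 811). miR-183-5p had one of 45.3 CPM (21.9 to 494). For both miRNAs the wild type range spanned all vehicle and all Vorinostat libraries, so these values do not place wild type relative to either group. All 5 tested members of the list of other brain regions had values above 0, beside 278 of all 579. Their median log2 difference was 1.03 against -0.02 over all tested miRNAs. miR-10a-5p, of the Hoxb cluster, had a log2 difference of 0.69 (SE 0.28, edgeR adjusted p = 0.751). The list holds the miR-183 cluster itself and is not a separate measurement. Its summed share of counts ran from 0.00882 to 0.0181% with vehicle and from 0.0138 to 0.0539% with Vorinostat. miR-196a-5p had no read in 6 of 7 vehicle and 9 of 10 Vorinostat libraries. The part of tissue from outside CA1 in these values was not tested, and fewer cells of a type cannot be told apart from less RNA per cell.

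miR-6896-5p, annotated in an intron of Dst, had the next smallest p at a low level. Its values were 0.928, 2.00 and 2.40 CPM with vehicle and 2.21, 3.52 and 5.15 CPM with Vorinostat. It was above all vehicle libraries in 9 of 10 Vorinostat libraries, with a log2 difference of 0.85 (SE 0.23, edgeR unadjusted p = 0.00161, adjusted p = 0.467). The other miRNAs on the higher side by smallest unadjusted p were miR-10a-5p, miR-1306-3p (in an exon of Dgcr8, the gene of the hairpin-binding partner of Drosha), miR-361-3p, miR-543-3p and miR-881-3p, with log2 differences of 0.31 to 0.77.

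On the lower side the smallest unadjusted p was that of miR-29b-3p. It had 767, 1532 and 4299 CPM with vehicle and 527, 866 and 1629 CPM with Vorinostat. Vehicle replicate 5 held the value of 4299 CPM and raised the vehicle mean to 1741 ± 1179 CPM (SD, n = 7). All 10 Vorinostat libraries were below that mean, and 4 were below every vehicle library. The log2 difference was -0.82 (SE 0.30, edgeR unadjusted p = 0.0131, adjusted p = 0.751). Without vehicle replicate 5 it was -0.40. let-7b-5p, a member of the let-7 family that marks differentiated cells, had 4092, 4784 and 6300 CPM with vehicle and 3236, 3957 and 5211 CPM with Vorinostat, a log2 difference of -0.33 (SE 0.13, edgeR adjusted p = 0.751). miR-34b-3p, of a p53-regulated family, had 4.35, 8.22 and 10.2 CPM with vehicle and 1.51, 3.82 and 9.40 CPM with Vorinostat, a log2 difference of -0.74 (SE 0.29, edgeR adjusted p = 0.751). The others were miR-425-3p, miR-500-3p, miR-345-3p, miR-376a-3p and miR-3078-5p, with log2 differences from -0.78 to -0.38.

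**Figure D2:**
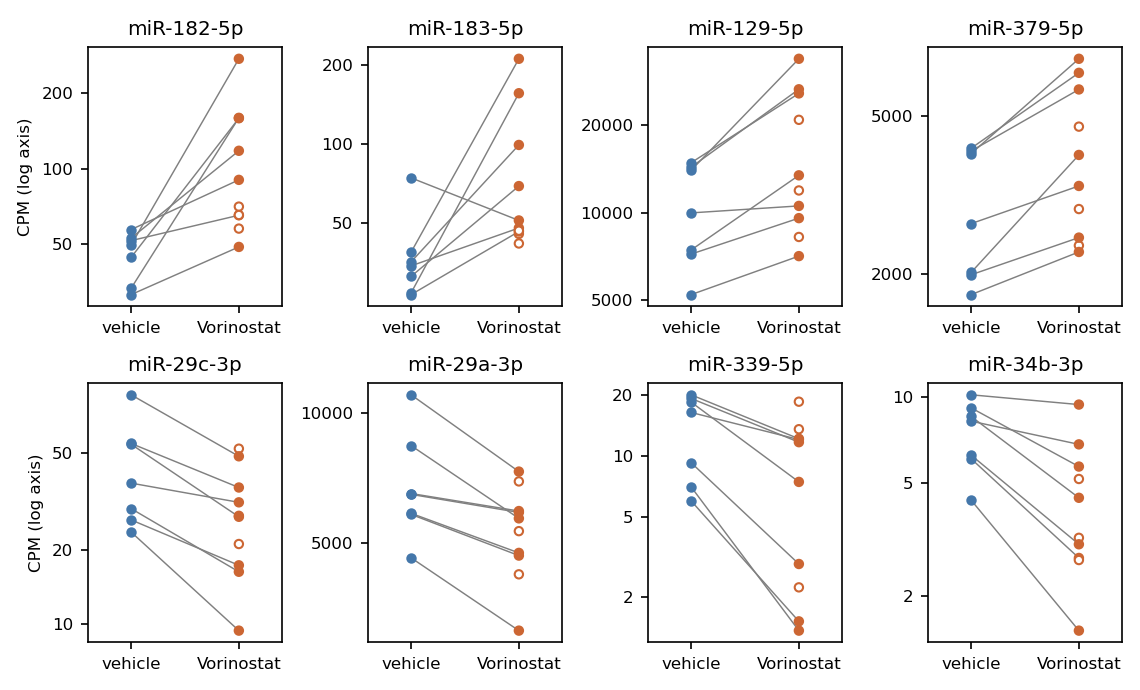
CPM on log axes of 8 miRNAs, 1 point per library (7 vehicle, 10 Vorinostat), with grey lines joining libraries of the same replicate number and open points for Vorinostat libraries without a vehicle library of that number. Lines rise in all 7 pairs for miR-182-5p, miR-129-5p and miR-379-5p and fall in all 7 for miR-29c-3p, miR-29a-3p, miR-339-5p and miR-34b-3p, while the levels of both groups overlap.

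Vehicle and Vorinostat libraries of the same set of numbers (1 to 6 or 7 to 10) lay on the same side of the first principal component. The comparison within single numbers gave calls. The labels do not say that a number marks a shared litter, day or batch, and only 1 of 7 vehicle libraries correlated best with the Vorinostat library of its own number. In pair 5 the vehicle library was in sequencing lane L001 and the Vorinostat library in lane L002, by the deposited column names, while each other pair shared a lane. With the number as a block (7 pairs; Vorinostat 1, 4 and 7 have no partner), edgeR called 5 of 579 miRNAs at an adjusted p under 0.05, which is 0.864%: 3 higher and 2 lower. At an unadjusted p under 0.05 there were 146, or 25.2%, of which 63 were higher and 83 lower. At an adjusted p under 0.1 there were 73, or 12.6%. In 70 miRNAs, 12.1% of those tested, all 7 pairs moved in 1 direction, 36 higher and 34 lower.

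The calls depend on single pairs. Without pair 2, 6, 8, 9 or 10 the count was 0. Without pair 3 it was 23, with all 5 among them, and without pair 5 it was 14, with 4 of the 5 among them and miR-29c-3p lost. With all pairs, all 5 were also called within pairs by DESeq2 (60 calls, 10.4%) and by limma voom (8 calls, 1.38%). The same differences run along the axis that separates the numbers. Of the 146 miRNAs at an unadjusted p under 0.05, 145 had a difference with the sign of their loading on the first principal component, against 81.0% of all 579, where loadings and differences come from the same libraries. The exception was miR-345-3p. The score itself was higher with Vorinostat in 6 of 7 pairs (mean difference 9.04 ± 9.08, SD, n = 7, exact sign-flip permutation test over pairs, two-sided, p = 0.0313). Whether this shift belongs to the treatment was not tested.

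**Figure D3:**
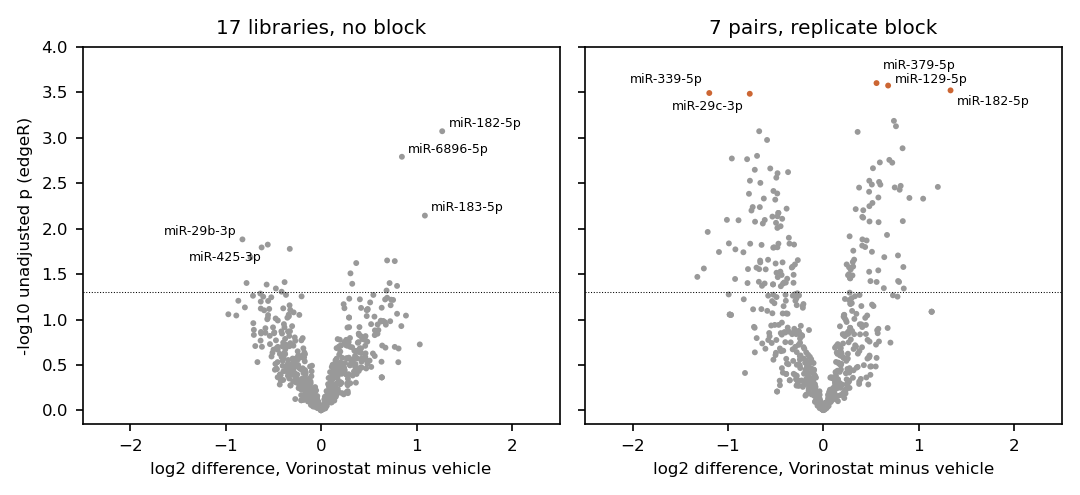
log2 difference (Vorinostat minus vehicle) against -log10 of the unadjusted edgeR p for 579 miRNAs, without the numbers on the left and with them as a block on the right. The dotted line marks an unadjusted p of 0.05, orange points have an adjusted p under 0.05 (0 on the left, 5 on the right), and the 5 miRNAs of smallest p are named in each panel.

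In 7 of 7 pairs miR-182-5p was the higher one with Vorinostat, by 0.33 to 2.46 on the log2 scale, and its log2 difference within pairs was 1.33 (SE 0.26, edgeR with the block, adjusted p = 0.0379). miR-183-5p was higher in 6 of 7 pairs and did not pass (log2 difference 1.20, SE 0.33, adjusted p = 0.0619 in edgeR). With library slopes on base composition taken out as well, it passed, with a log2 difference of 1.29 (SE 0.31) and an adjusted p of 0.0289 in edgeR. miR-96-5p had a log2 difference of 0.46 within pairs (SE 0.40, edgeR adjusted p = 0.486). Of the 3 neighbouring strands, 1 thus passed in the block without that correction.

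miR-129-5p, enriched in brain and known to target potassium channel and synaptic messenger RNAs, was higher in 7 of 7 pairs. It had 5219, 9975 and 14845 CPM (lowest, median, highest) with vehicle and 7082, 12676 and 33835 CPM with Vorinostat. The vehicle libraries numbered 8, 9 and 10 had 13982, 14845 and 14331 CPM, and the 4 vehicle libraries numbered 2 to 6 had 5219 to 9975 CPM, so the spread within a group was as wide as that between groups. Its log2 difference was 0.69 (SE 0.32, adjusted p = 0.751) without the block and 0.68 (SE 0.13, adjusted p = 0.0379) with it, both in edgeR. The 3′ strands of its 2 hairpins did not follow it. miR-129-2-3p had a log2 difference of -0.48 within pairs (SE 0.20, edgeR adjusted p = 0.158), and miR-129-1-3p of -0.01 (SE 0.16, edgeR adjusted p = 0.982).

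miR-379-5p, of the imprinted cluster on chromosome 12, was higher in 7 of 7 pairs, by 0.31 to 0.98 on the log2 scale. It had 1778, 2681 and 4146 CPM with vehicle and 2276, 3661 and 6956 CPM with Vorinostat. The log2 difference within pairs was 0.56 (SE 0.11, edgeR adjusted p = 0.0379). The 27 tested members of the Mirg cluster, which are processed from 1 imprinted transcript, did not move as 1: 11 were higher and 16 lower within pairs (48% of all tested miRNAs were higher), with a median log2 difference of -0.06. Of them 6 were higher and 4 lower at an unadjusted p under 0.05, beside 10.9% and 14.3% of all tested miRNAs. miR-409-3p was higher in 7 of 7 pairs (log2 difference 0.76, SE 0.17, edgeR adjusted p = 0.0553), and miR-369-3p, from the same cluster, was lower in 7 of 7 pairs (-0.96, SE 0.24, edgeR adjusted p = 0.0619). miR-369-3p had 23.8% G+C, and miR-409-3p 54.5%.

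miR-339-5p was lower with Vorinostat in 7 of 7 pairs, with differences from -2.23 to -0.44 on the log2 scale, at a low level. It had 5.98, 16.4 and 20.05 CPM with vehicle and 1.36, 9.55 and 18.5 CPM with Vorinostat. Its values in Vorinostat libraries numbered 7 to 10 were 1.36 to 2.91 CPM, and in those numbered 1 to 6 they were 7.43 to 18.5 CPM. The log2 difference was -0.70 (SE 0.47, adjusted p = 0.751) without the block and -1.20 (SE 0.24, adjusted p = 0.0379) with it, in edgeR. Its G+C share is 65.2%, so it went against the slope on base composition. miR-339-3p, the other arm, had a log2 difference of 0.03 within pairs (SE 0.21, edgeR adjusted p = 0.940).

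miR-29c-3p was lower in 7 of 7 pairs, with 23.8, 37.7 and 86.7 CPM with vehicle and 9.39, 27.6 and 52.2 CPM with Vorinostat. The log2 difference within pairs was -0.77 (SE 0.15, edgeR adjusted p = 0.0379). miR-29a-3p, the most abundant of these 3 guide strands, had 4633, 6492 and 11021 CPM with vehicle and 3146, 5527 and 7327 CPM with Vorinostat. It was lower in 7 of 7 pairs and did not pass (log2 difference -0.37, SE 0.10, edgeR adjusted p = 0.0619). miR-29b-3p was lower in 6 of 7 pairs (-0.66, SE 0.18, edgeR adjusted p = 0.0619). Of 7 tested strands of the family, guide and passenger, 5 were lower at an unadjusted p under 0.05 within pairs, beside 14.3% of all tested miRNAs, and 1 of them passed adjustment. The median log2 difference of the 7 was -0.62 within pairs, against -0.02 over all tested miRNAs. The 3 guide strands are also in the astrocyte list, of which 5 of 6 were lower (median -0.40), beside 301 of all 579. The summed share of that list was lower with Vorinostat in 7 of 7 pairs, and the part of astrocyte RNA in the miR-29 values was not tested. After the correction for base composition within pairs, the log2 difference of miR-29c-3p was -0.62 (SE 0.14, edgeR adjusted p = 0.0257), that of miR-29a-3p -0.28 (adjusted p = 0.0831) and that of miR-29b-3p -0.48 (adjusted p = 0.1102).

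Some families that share a seed leaned 1 way within pairs, without a member that passed. The seed AAAGUGC, known for its place in the miR-17-92 cluster and its paralogs, which act on the cell cycle, was shared by 4 tested miRNAs.
miR-17-5p: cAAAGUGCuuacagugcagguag
miR-20a-5p: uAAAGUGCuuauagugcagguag
miR-93-5p: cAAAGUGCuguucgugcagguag
miR-106b-5p: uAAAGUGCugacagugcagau
All 4 had unadjusted p under 0.05 on the lower side, beside 14.3% of all tested miRNAs, with log2 differences from -0.68 to -0.45 and edgeR adjusted p from 0.0757 to 0.173. miR-93-5p had 33.1, 59.3 and 68.3 CPM with vehicle and 13.3, 49.1 and 59.3 CPM with Vorinostat, and was lower in 7 of 7 pairs. miR-17-5p and miR-20a-5p share an exon of Mir17hg on chromosome 14, and miR-93-5p and miR-106b-5p lie within Mcm7 on chromosome 5, so the 4 come from 2 transcripts. miR-25-3p, from the same Mcm7 cluster with another seed, was higher in 7 of 7 pairs (log2 difference 0.23, SE 0.11, edgeR adjusted p = 0.211).

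The seed GUAAACA is that of the miR-30 guide strands, known to be abundant in brain and other tissues. All 4 tested entries with a sequence and this seed had values below 0 within pairs, beside 301 of all 579. miR-30e-5p (log2 difference -0.56, SE 0.14, edgeR adjusted p = 0.0619), miR-30c-5p (-0.52, SE 0.15, adjusted p = 0.0629) and miR-384-5p (-0.48, SE 0.14, adjusted p = 0.0629) were lower in 7 of 7 pairs. miR-30b-5p had a log2 difference of -0.75 (SE 0.23) and miR-30d-5p, the most abundant miR-30 strand, one of 0.13 (SE 0.10), with edgeR adjusted p of 0.0716 and 0.407. A passenger strand, miR-30e-3p, was higher in 7 of 7 pairs (0.27, SE 0.11, edgeR adjusted p = 0.142). Of 6 miRNAs with the seed AGCAGCA of miR-15 and miR-16, 5 were lower, beside 301 of all 579, and 3 of them had an unadjusted p under 0.05, beside 14.3% of all tested miRNAs. miR-16-5p had a log2 difference of -0.65 (SE 0.23, edgeR adjusted p = 0.108). The 3 miRNAs with the seed ACCCGUA, known to act on the mTOR pathway, had values above 0: miR-99a-5p 0.27 (SE 0.11), miR-100-5p 0.24 (SE 0.09) and miR-99b-5p 0.42 (SE 0.13), with edgeR adjusted p from 0.0754 to 0.154. All 3 had unadjusted p under 0.05, beside 10.9% of all tested miRNAs on the higher side.

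The 2 arms of a hairpin had opposite directions about as often as the same direction. Of 163 hairpins with both arms tested, 78 had arms with the same direction within pairs and 85 had arms with opposite directions. Over all 579 tested miRNAs 278 were higher and 301 lower, so this split is not particular to hairpins. Strands made by more than 1 hairpin, such as miR-9-5p, count once for each hairpin. In 9 hairpins both arms had an unadjusted p under 0.05 in opposite directions, and in 4 in the same direction. Over all tested miRNAs 10.9% were higher and 14.3% lower at that p. The 9 were Mir106b, Mir129-2, Mir135a-2, Mir30c-2, Mir30e, Mir361, Mir365-1, Mir664 and Mir708, and in 8 of them the higher arm had more G+C. Mir708, in an intron of Tenm4 on the plus strand of chromosome 7, was the exception. Its arms are shown to compare their base composition, at chr7:96249450-96249472 and chr7:96249496-96249517.
miR-708-5p: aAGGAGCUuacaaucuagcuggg
miR-708-3p: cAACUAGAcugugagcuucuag
miR-708-3p had 772, 1355 and 2881 CPM with vehicle and 1193, 1800 and 5738 CPM with Vorinostat. miR-708-5p had 62.7, 123 and 205 CPM with vehicle and 39.2, 102 and 157 CPM with Vorinostat. Within pairs the log2 difference of the 3′ strand was 0.69 (SE 0.17) and that of the 5′ strand -0.49 (SE 0.13), each with an edgeR adjusted p of 0.0619. Both strands come from 1 precursor, and their G+C shares are 45.5% and 47.8%.

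Base composition moved with the difference between groups. Over the 205 miRNAs with a sequence and a mean log2 CPM above 5, the log2 difference within pairs was larger at a higher G+C share (Pearson r = 0.419, Spearman rho = 0.426, across miRNAs of the same libraries, as a description). The 18 miRNAs under 35% G+C had a median log2 difference of -0.46, with 4 above 0. The 39 miRNAs of 55% and over had a median of 0.26, with 28 above 0. The slope of log2 CPM on G+C was higher with Vorinostat in 7 of 7 pairs, by 0.155 ± 0.134 per 10 percentage points (SD, n = 7, exact sign-flip permutation test over pairs, two-sided, p = 0.0156, the smallest that 7 pairs allow). Without pairing the difference was within the spread between libraries (exact permutation p = 0.313). With each library's slope taken out, the block fit called 27 of the 492 miRNAs with a sequence (5.49%), 11 higher and 16 lower, and all 5 of the calls above were among them. The unblocked fit with the same correction called 0, with 30 (6.1%) at an unadjusted p under 0.05.

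The intervals bound the size of the difference for the abundant miRNAs. miR-128-3p, a neuronal miRNA and the most abundant of these libraries, had 154336, 208450 and 262495 CPM with vehicle and 185760, 254237 and 361110 CPM with Vorinostat. Its log2 difference was 0.30 (95% interval -0.01 to 0.60) without pairing, and 0.36 (SE 0.08, edgeR adjusted p = 0.0553) within pairs, where it was higher in 7 of 7. miR-9-5p, a regulator of neural differentiation, differed by -0.05 (95% interval -0.26 to 0.15), let-7f-5p by 0.03 (-0.19 to 0.25), let-7c-5p by -0.06 (-0.28 to 0.15), miR-218-5p by 0.04 (-0.23 to 0.32) and miR-26a-5p by -0.04 (-0.31 to 0.22). These 5 intervals exclude a change of 1 on the log2 scale in either direction. miR-127-3p, of the antisense transcript of the imprinted gene Rtl1, had a wider interval (-0.06 to 1.02) around 0.48. Over all tested miRNAs, the interval lay within a 2-fold change in either direction for 379 of 579 (65.5%). It did so for 54 of 68 (79.4%) of those of 1000 CPM or more, for 86 of 104 (82.7%) from 100 to 1000 CPM, for 121 of 165 (73.3%) from 10 to 100 CPM and for 118 of 242 (48.8%) under 10 CPM. For the remaining miRNAs a 2-fold difference is not excluded at this spread and depth.

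Of 17 tested miRNAs tied to activity and plasticity, 8 were higher and 9 lower within pairs, with a median log2 difference of -0.10. There was 1 call (miR-379-5p), beside 0.864% of all tested miRNAs. At an unadjusted p under 0.05, 4 were higher and 4 lower, beside 10.9% and 14.3% of all tested miRNAs. In 5 of the 17 all 7 pairs moved in 1 direction, 3 higher and 2 lower, beside 12.1% of all tested miRNAs. miR-132-3p, induced by CREB, had a log2 difference of 0.14 within pairs (SE 0.11, edgeR adjusted p = 0.446), and its neighbour miR-212-5p one of 0.31 (SE 0.11, edgeR adjusted p = 0.115). Of 10 tested miRNAs known to target histone deacetylase messenger RNAs, 4 were higher and 6 lower (median -0.08), with 2 at an unadjusted p under 0.05 on the lower side, beside 14.3% of all tested miRNAs. The miR-34 and miR-449 family had 5 of 5 tested members below 0 (median -0.39), beside 301 of all 579. Most of these members are strands of the neighbouring miR-34b and miR-34c hairpins and are not separate observations. miR-34b-3p was lower in 7 of 7 pairs (-0.77, SE 0.21, edgeR adjusted p = 0.0619). miR-34c-5p, known for limiting memory in the hippocampus, had 36.9, 75.0 and 170 CPM with vehicle and 34.2, 52.9 and 86.1 CPM with Vorinostat. It was lower in 6 of 7 pairs, with a log2 difference of -0.39 (SE 0.17, edgeR adjusted p = 0.166). Vehicle replicate 9 held the value of 170 CPM. Without that library the unpaired log2 difference of miR-34c-5p was -0.20, against -0.52 with it. Its median in wild type libraries was 53.2 CPM, with a range of 18.5 to 97.4 CPM. That range overlapped both groups, so these values do not place wild type relative to either group. Of 5 neuron markers, 1 (miR-128-3p) was higher and 4 lower within pairs (median -0.26), beside 278 higher and 301 lower of all 579. Among these 5, miR-128-3p was higher and miR-124-3p and miR-137-3p lower in 7 of 7 pairs. Endothelial markers had a median of -0.02, microglial and leukocyte markers of -0.06, oligodendrocyte markers of -0.27 and heart and skeletal muscle markers of -0.09 within pairs. For none of these 5 lists did a member pass adjustment.

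**Figure D4:**
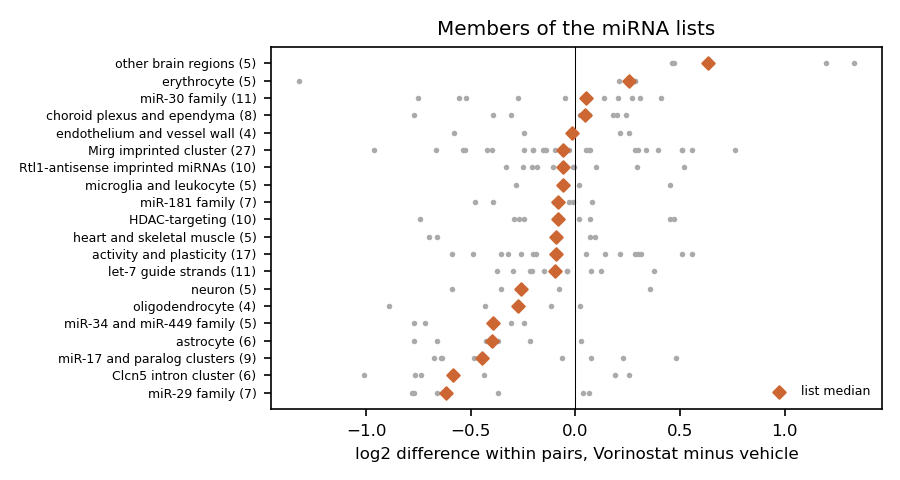
Each grey point is 1 tested miRNA of a list (number tested in parentheses) at its log2 difference within pairs (Vorinostat minus vehicle), and each diamond is the list's median. List medians run from -0.62 for the miR-29 family to 0.63 for the list of other brain regions, and most lists straddle 0.

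No miRNA passed a test for a different effect in the 2 sequencing lanes that the deposited column names give. The test of the difference between lanes called 0 of 579 (edgeR, with 10 or 1.73% at an unadjusted p under 0.05, and DESeq2, with 11 or 1.9%). miR-182-5p had a log2 difference of 1.21 in lane L001 and 1.26 in lane L002. Of the miRNAs called within pairs, miR-339-5p had the widest gap between lanes (-0.39 and -1.13).

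The values normalized by the authors gave another picture of the same libraries. Limma on these log2 values called 401 of 674 miRNAs at an adjusted p under 0.05 (59.5%), 122 higher and 279 lower. The median log2 difference in the authors' values was -0.24, against -0.02 in the counts. The part of this offset in the lower calls was not tested. Over the 579 miRNAs tested in both, the median SD within groups was 0.336 in the authors' values and 0.545 in log2 CPM, and the SD was smaller in the authors' values for 514. The direction was that of the counts for 459 of 579. No source used here says how the authors' values were made. All 5 miRNAs called within pairs were called in the same direction: miR-182-5p 1.72 (SE 0.26), miR-129-5p 1.17 (SE 0.16), miR-379-5p 0.90 (SE 0.14), miR-339-5p -1.74 (SE 0.30) and miR-29c-3p -1.70 (SE 0.24). For miR-26a-5p, which differed by -0.04 in the counts, the authors' values gave -0.80 (SE 0.17).

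The authors' co-expression modules, which were built from these libraries and are not independent of them, split the differences by sign. In the blue module 154 of 171 tested miRNAs were higher within pairs, 56 of them at an unadjusted p under 0.05 and 0 lower at that p. In the turquoise module 256 of 345 were lower, 83 at an unadjusted p under 0.05, with 7 higher at that p. Over all tested miRNAs 48% were higher, and at that p 10.9% were higher and 14.3% lower. The blue module had a median G+C share of 52.4% and the turquoise module one of 45.5%.

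Entries below the count filter added no on or off pattern. There were 746 entries with reads, holding 0.0108% of counts, and none had reads in at least 8 Vorinostat and 0 vehicle libraries, or in at least 6 vehicle and 0 Vorinostat libraries.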

How the data were processed

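Small RNA of the CA1 region was prepared with the TruSeq Small RNA kit and read as single ends of 50 bp on a HiSeq2000, per the labels' protocols. FastQC 0.11.5 and mm10 come from the submitters' processing notes, and no source used here gives the aligner or how reads were counted. The authors deposited raw counts for 1915 miRNA entries, log2 values that they normalized by steps no source used here gives, and a score of membership in co-expression modules. Near-identical miRNAs share reads: 26 tested entries had the same counts as another in every library, and values of close family members are uncertain.

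Counts of the 17 transgenic libraries were tested with edgeR 4.0.16 in R 4.3.3 (quasi-likelihood test, trimmed-mean factors, filterByExpr at minimum count 10 and minimum total 15, two-sided, Benjamini-Hochberg over 579 miRNAs). A joint model of all 26 libraries was an alternative, since 1 wild type library is far shallower than the others. Total counts ran from 3.89 to 24.8 M per library. The fits were tested on simulated data with known changes. The replicate number was taken as pairing because the deviations from the group means correlated in all 7 pairs (0.278 to 0.605), although the labels do not state it. Both libraries of each pair lie on the same side of the first principal component. The correlations therefore cannot tell pairing by single number from the split into numbers 1 to 6 and 7 to 10. The correction for base composition took out each library's slope of log2 CPM on G+C over 205 miRNAs. log2 CPM used a prior count of 2. Sequences came from RefSeq for 492 of 579 tested miRNAs (85.0%) and overlapping genes from GENCODE. limma 3.58.1 and DESeq2 1.42.0 were alternatives.

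The members, lists and the rule for names were chosen with earlier results of these data known. The rule took miRNAs with an adjusted p under 0.05 or, where fewer than 10 passed, the 8 higher and 8 lower of smallest unadjusted p, then the 10 most abundant, and of each list the member of smallest p and the most abundant one. It gave 48 miRNAs. The other miRNAs described, among them those called within pairs, the seed families and the hairpin arms, were chosen after their values were seen.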

Additional observations from a re-analysis of the deposited data

Results flagged for a closer look

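Values of 1 library stood apart from the rest of its group in 10 of 116 groups of values examined, where chance alone gives about 1 in 20. All were marked because the gap to the nearest library took a large part of the group's range. Vehicle replicate 6 had high miR-183-5p (log2 CPM 6.22) and low miR-10a-5p (3.52), miR-1306-3p (-0.14) and miR-7a-5p (13.6). Vehicle replicate 5 had high miR-376a-3p (6.92) and let-7f-5p (15.6) and low miR-345-3p (4.03). Vorinostat replicate 8, the shallowest library, had the fewest entries with reads (696) and low miR-500-3p (-0.38) and miR-26a-5p (15.1).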

How the results depend on the processing

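The count of 0 without pairing stayed 0 with other scaling, filters, limma voom, a lane covariate, within each lane, with all 26 libraries, with the correction for base composition and without each library in turn. It was 1 with DESeq2, 5 with the replicate block and 401 on the authors' normalized values. Within pairs, alternatives chosen after seeing the data gave 35 calls with library totals, 16 with lane as a further term, 27 with the correction for base composition, 31 among miRNAs of at least 10 CPM, 60 with DESeq2 and 8 with limma voom, and 0 to 23 without 1 pair (0 without pair 2, 6, 8, 9 or 10, 23 without 3, 14 without 5); the cause was not tested. On the authors' values 12 of the 96 miRNAs described changed sign, 2 of them past the threshold there (let-7f-5p -0.24, miR-218-5p -0.43), and miR-543-3p was at -0.10. Of 3126 values of single miRNAs under alternatives, 3053 kept their direction. Most alternatives refit the same libraries or leave out 1 of them, so a kept direction was largely set in advance. Of the abundance classes, miRNAs under 10 CPM had the 95% interval within a 2-fold change least often, in 118 of 242. The part of depth in this was not tested.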

Other observations

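Among miRNAs of at least 100 CPM, the libraries numbered 7 to 10 and those numbered 1 to 6 had unlike levels of several. miR-369-3p was lower in the libraries numbered 7 to 10 by a log2 difference of -2.299 and miR-16-5p by one of -1.55, and miR-151-3p was higher by 1.63 and miR-148a-3p by 1.46. Within pairs, miR-151-3p, from an intron of the focal adhesion kinase gene Ptk2, was higher with Vorinostat in 6 of 7 pairs (log2 difference 0.74, SE 0.16, edgeR adjusted p = 0.0553), and miR-107-3p, from a pantothenate kinase gene, was lower in 7 of 7 (-0.67, SE 0.15, edgeR adjusted p = 0.0553).

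Libraries on Vorinostat spread more than those on vehicle. The median SD of log2 CPM was 0.573 with Vorinostat and 0.456 with vehicle, and the SD was larger with Vorinostat for 430 of 579 miRNAs. Without Vorinostat replicate 8 the median was 0.510 and the count 360.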
